A study of Homo sapiens with 30 samples.

Results

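The aryl hydrocarbon receptor pathway was represented by 7 genes chosen by symbol: the receptor AHR, its dimer partner ARNT, the feedback genes AHRR and TIPARP, and the enzyme genes CYP1A1, CYP1B1 and ALDH3A1. All 7 were present among the 58735 genes of the deposited count table, and all 7 passed the filter on low counts with the 17499 genes that were tested. PC3, an established human prostate cancer cell line, was treated for 48 h with the vehicle DMSO, with the PIM kinase inhibitor SGI-1776 at 1500 or 3750 nM, or with the PROTAC SGI-1776-VHL-02 at 1500 or 3750 nM. The study set inhibition of PIM kinases against their degradation. A PROTAC is a molecule built to bring a target protein to a ubiquitin ligase so that the protein is degraded. Each of the 5 groups held 6 libraries, 3 labelled Rep 1 and 3 labelled Rep 2, with no genetic change and no other agent given in the labels.

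AHR is a transcription factor that small aromatic molecules bind in the cytoplasm, where HSP90 and the co-chaperone p23 hold it. Once bound it enters the nucleus, pairs with ARNT and attaches to DNA at a short element whose core reads GCGTG, next to genes of foreign-compound metabolism. CYP1A1 and CYP1B1 oxidise polycyclic aromatic hydrocarbons and oestrogens, and ALDH3A1 oxidises aldehydes. AHRR and TIPARP are targets that feed back: AHRR competes with AHR for ARNT, and TIPARP attaches ADP-ribose to AHR and limits its activity.

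The windows of 250 bases before the RefSeq transcription start (GRCh38.p14) are printed for a target enzyme and for both feedback genes, because these hold the core element. Of the 7 genes, 5 were matched in the promoter table, with 8 windows in all, and CYP1B1 and ALDH3A1 were not among them. The searched letters were GCGTG on both strands, and capitals mark each match, written CACGC where it lies on the opposite strand.
CYP1A1, chr15:74725529-74725778, minus strand: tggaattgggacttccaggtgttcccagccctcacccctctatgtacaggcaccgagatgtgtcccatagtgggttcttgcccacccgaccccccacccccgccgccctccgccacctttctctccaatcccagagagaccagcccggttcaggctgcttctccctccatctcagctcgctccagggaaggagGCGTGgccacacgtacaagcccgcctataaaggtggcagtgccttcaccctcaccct
TIPARP, chr3:156674340-156674589, plus strand: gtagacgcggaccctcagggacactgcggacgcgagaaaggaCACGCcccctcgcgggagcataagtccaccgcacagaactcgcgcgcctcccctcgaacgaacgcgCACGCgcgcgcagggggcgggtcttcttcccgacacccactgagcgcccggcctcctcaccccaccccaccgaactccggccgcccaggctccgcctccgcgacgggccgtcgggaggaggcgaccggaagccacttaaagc
AHRR, chr5:321464-321713, plus strand: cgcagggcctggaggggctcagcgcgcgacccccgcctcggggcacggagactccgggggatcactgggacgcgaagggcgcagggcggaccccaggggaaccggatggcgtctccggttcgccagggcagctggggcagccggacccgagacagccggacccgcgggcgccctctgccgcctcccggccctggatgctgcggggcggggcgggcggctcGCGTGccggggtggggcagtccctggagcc
The CYP1A1 window held 1 match, which starts 57 bases before the start site. The first of the 3 TIPARP windows held 2 matches and the other windows none. The first of the 2 AHRR windows held 1 match, which also carries the longer form TNGCGTG, and the other AHRR window held 2. The single windows of AHR and ARNT held none. GCGTG was found in 32.2% of 35116 windows of the same length and TNGCGTG in 4.52%, so a match describes these letters and not a bound site.

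Total counts ran from 22520292 to 48968707 per library. Mitochondrial transcripts took 1.94% to 3.96% of the counts in Rep 1 and 0.296% to 1.67% in Rep 2, and 4 libraries of Rep 2 lay under 0.5%: 1 of DMSO, 1 of SGI-1776 at 3750 nM and 2 of SGI-1776-VHL-02 at 1500 nM. The epithelial keratins KRT8 and KRT18 averaged 529 and 298 CPM (counts scaled to a common library size), and EPCAM averaged 102 CPM. KLK3, the gene of prostate-specific antigen, had no count in any library. Leukocyte and hepatocyte markers averaged at most 0.337 CPM, whereas the matrix gene COL1A1 averaged 46.1 CPM. The labels do not say which libraries came from separate cultures, so the p-values measure the spread between these libraries, which may be technical. In bulk RNA, fewer cells with a transcript and less transcript per cell cannot be told apart.

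In DMSO, CPM per kilobase of exon gave the order of levels between the genes. TIPARP was highest at 22.7 ± 0.562 (SD, n = 6), followed by ALDH3A1 at 13.3 ± 2.03 and CYP1B1 at 12.2 ± 0.450, whose ranges overlapped. AHR at 6.98 ± 0.386 and ARNT at 6.86 ± 0.232 also overlapped. Of the 8081 exonic bases of AHR, 2373 are shared with AC019117.2 on the same strand, so this AHR level may be too low. CYP1A1 followed at 2.35 ± 0.330, and AHRR was lowest at 0.633 ± 0.0609. CYP1A1 rested on 131 to 513 counts per library over all groups. Of the 3 enzyme genes it had the lowest counts and the largest standard errors of the log2 fold changes against DMSO.

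**Figure D1:**
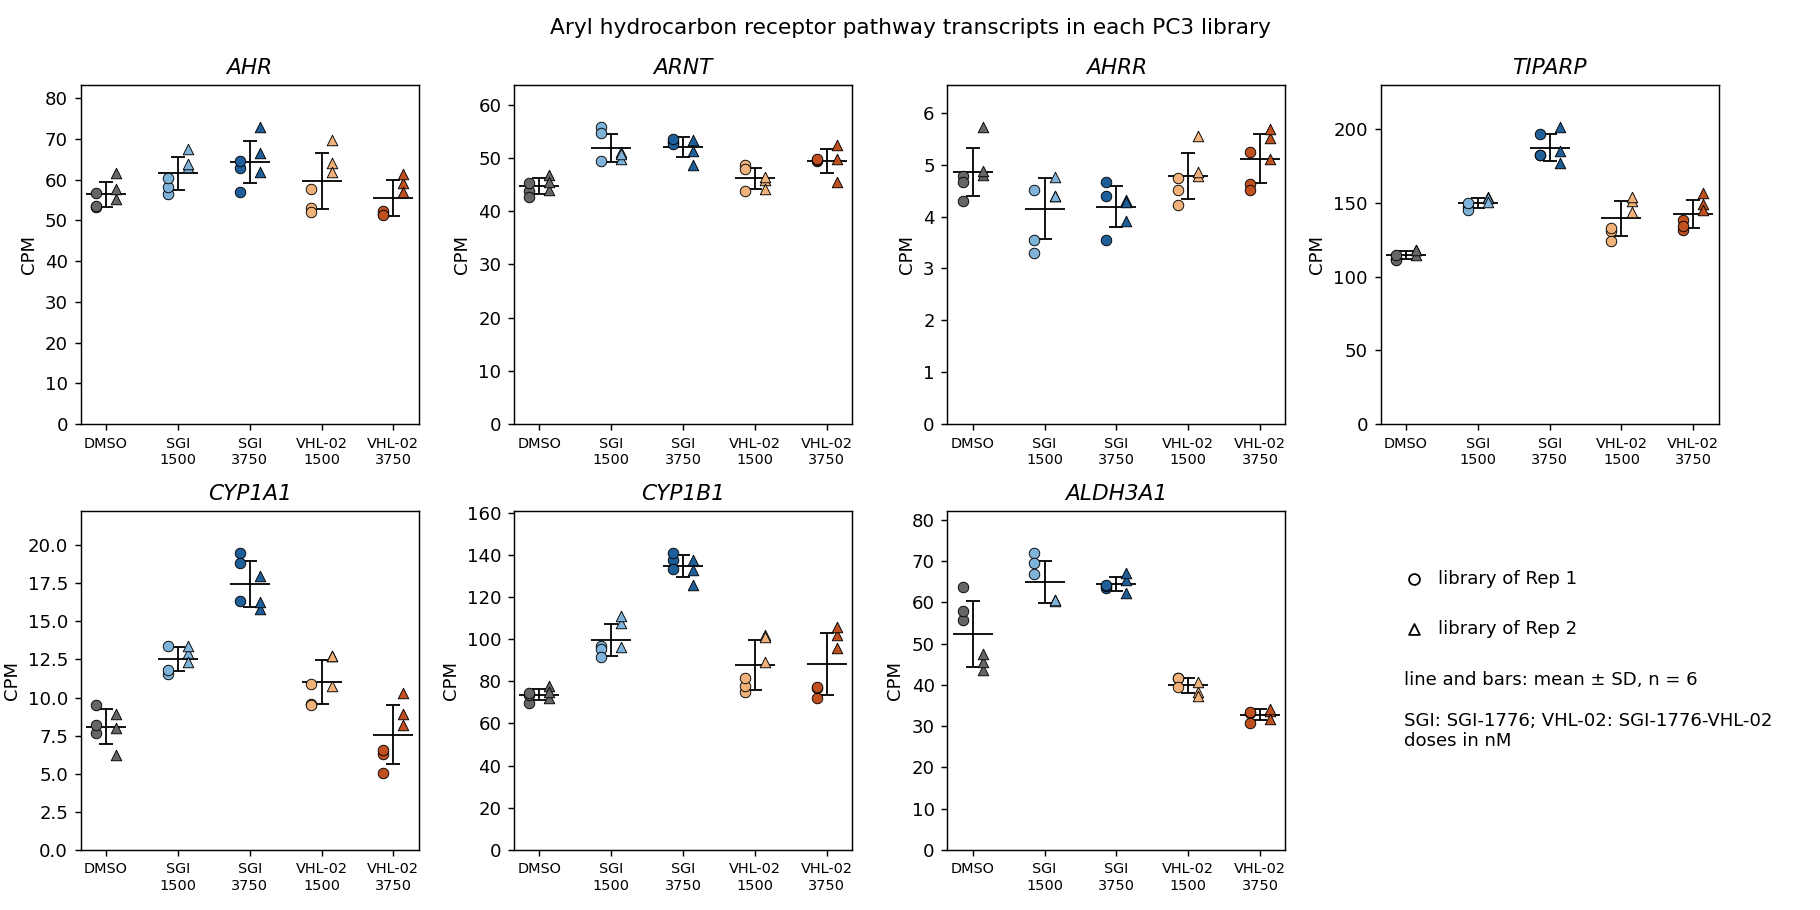
Level of each of the 7 transcripts in CPM (vertical axes, starting at 0) in each library of the 5 groups; circles are Rep 1, triangles Rep 2, and lines with bars the mean ± SD of 6 libraries. CYP1A1, CYP1B1 and TIPARP are highest with SGI-1776 at 3750 nM, whereas ALDH3A1 is lowest with SGI-1776-VHL-02 at 3750 nM.

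SGI-1776 raised the enzyme genes and TIPARP. At 3750 nM, CYP1A1 was 2.16-fold, CYP1B1 1.83-fold and TIPARP 1.63-fold the DMSO level, and ALDH3A1 was 1.23-fold. SGI-1776-VHL-02 at the same dose lowered ALDH3A1 to 0.626-fold, while TIPARP and CYP1B1 rose 1.24-fold and 1.20-fold and CYP1A1 was 0.935-fold without passing the test. Genes are said to have risen, fallen or changed where the adjusted p of edgeR's quasi-likelihood test was under 0.05 over all 17499 genes.

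Against DMSO, SGI-1776 at 1500 nM raised 5 of the 7 genes, and 12.9% of all tested genes were called in either direction and 5.28% of all genes were higher. At 3750 nM 6 of 7 rose, against 35.6% called and 17.2% higher. With SGI-1776-VHL-02 at 1500 nM 2 genes rose and 1 fell, against 1.92% called, 1.07% higher and 0.851% lower. At 3750 nM 3 rose and 1 fell, against 21.8% called, 11.5% higher and 10.3% lower. With Rep as a block, 21.6% of all genes were called for SGI-1776 and 9.42% for SGI-1776-VHL-02 at 1500 nM, shares over 1.5 times those without it, and 44.1% for SGI-1776 at 3750 nM. The split of calls over all genes moved with the scaling: for SGI-1776 it was 924 higher and 1339 lower at 1500 nM and 3016 and 3217 at 3750 nM, but 1322 and 896, and 3737 and 2623, when only library size was used. For SGI-1776-VHL-02 at 1500 nM it was 187 higher and 149 lower, and 120 and 222 with library size only. At 3750 nM it was 2011 higher and 1796 lower, and 1765 and 2153 with library size only. The 7 genes were chosen with earlier results of these data known, so these counts are a description. The median log2 fold change of the 7 genes was 0.31, 0.30, 0.08 and 0.07 for the 4 treatments in that order, beside medians over all genes of 0.0025, 0.0086, -0.0037 and 0.0025.

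**Figure D2:**
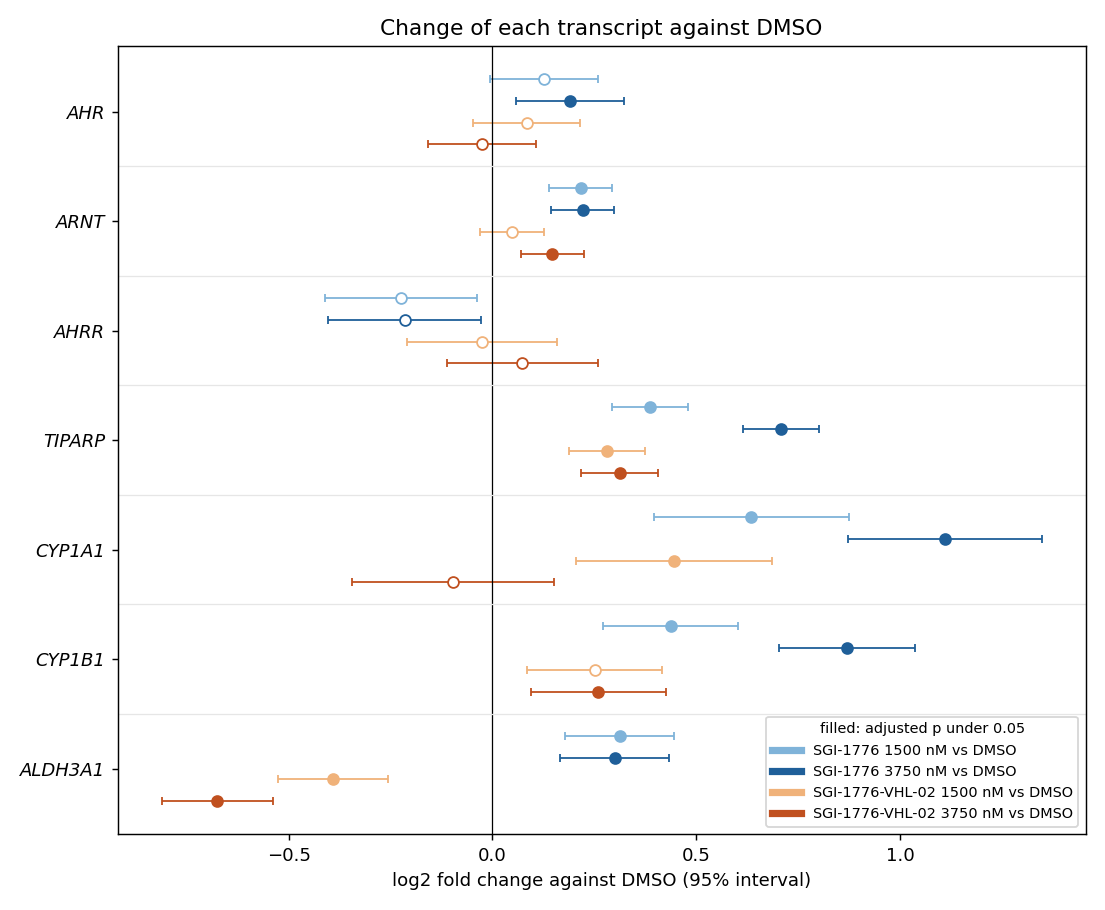
log2 fold change against DMSO (horizontal axis) with its 95% interval for each gene and treatment, 6 libraries against 6; filled points had an adjusted p under 0.05. CYP1A1 spans from 1.11 with SGI-1776 at 3750 nM to -0.10 with SGI-1776-VHL-02 at 3750 nM, and ALDH3A1 lies above 0 with SGI-1776 and below 0 with SGI-1776-VHL-02.

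CYP1A1 encodes the P450 enzyme most often used as a readout of AHR activity. Its lowest, median and highest levels were 6.23, 8.09 and 9.51 CPM in DMSO. They were 11.5, 12.6 and 13.4 CPM with SGI-1776 at 1500 nM and 15.8, 17.2 and 19.5 CPM at 3750 nM. Every SGI-1776 library lay above every DMSO library, and the 2 doses did not overlap either. Relative to vehicle the log2 change came to 0.64 ± 0.12 (SE, adjusted p = 0.000363) at 1500 nM and 1.11 ± 0.12 (adjusted p = 7.11e-09) at 3750 nM. In the list of 17499 genes ordered by log2 fold change, CYP1A1 ranked 120 from the top at 3750 nM. Group ranges of CPM failed to overlap for 6.87% of all genes at 1500 nM and 18.0% at 3750 nM, and 4 of the 7 genes were among them at each dose.

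With SGI-1776-VHL-02 CYP1A1 did not follow the same order of doses. Its lowest, median and highest levels were 9.52, 10.8 and 12.7 CPM at 1500 nM and 5.06, 7.37 and 10.3 CPM at 3750 nM. At 1500 nM all 6 libraries lay above DMSO (lowest 9.52 against 9.51 CPM), and at 3750 nM the range enclosed that of DMSO. Ranges lay apart from DMSO for 3 of the 7 genes at 1500 nM, against 1.72% of all genes, and for 2 at 3750 nM, against 12.2%. The log2 fold change was 0.45 ± 0.12 (adjusted p = 0.0405) at 1500 nM and -0.10 ± 0.12 (adjusted p = 0.651, 95% interval -0.34 to 0.15) at 3750 nM. The call at 1500 nM was lost without the 4 libraries under 0.5% mitochondrial counts, where the log2 fold change was 0.27 (adjusted p = 0.351), and with library size as the only scaling (0.42, adjusted p = 0.0534). It was also lost on leaving out any of 10 single libraries, with log2 fold changes of 0.38 to 0.45 and adjusted p from 0.0506 to 0.102. These were Rep 1 (1), Rep 1 (2), Rep 2 (1) and Rep 2 (2) of DMSO, Rep 1 (3) and Rep 2 (1) of SGI-1776 at 1500 nM, and Rep 1 (3) and all 3 of Rep 2 of SGI-1776-VHL-02 at 1500 nM. The part of the mitochondrial share in the result was not tested.

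CYP1B1 encodes the extrahepatic P450 of the same family and is found in tissues outside the liver, prostate tumours among them. Its lowest, median and highest levels were 69.5, 74.0 and 77.5 CPM in DMSO. They were 91.5, 96.5 and 110.8 CPM with SGI-1776 at 1500 nM and 125.6, 135.4 and 140.9 CPM at 3750 nM. These 3 ranges did not overlap, and the log2 fold change was 0.44 ± 0.08 (adjusted p = 0.000392) and 0.87 ± 0.08 (adjusted p = 7.68e-10). With SGI-1776-VHL-02 the levels were 74.8, 85.3 and 102.0 CPM at 1500 nM and 72.0, 86.6 and 105.6 CPM at 3750 nM, and both ranges overlapped DMSO. This gave log2 fold changes of 0.25 ± 0.08 (adjusted p = 0.107) at 1500 nM and 0.26 ± 0.08 (adjusted p = 0.0196) at 3750 nM. With Rep as a block the value at 1500 nM was 0.24 (adjusted p = 0.0113), which did not pass on libraries summed per Rep with the same block (0.23, adjusted p = 0.0768). The call at 3750 nM was lost without any single Rep 2 library of that group, with log2 fold changes of 0.20 to 0.23 and adjusted p from 0.0512 to 0.0772.

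ALDH3A1, the aldehyde dehydrogenase induced by AHR ligands in many epithelia, moved in opposite directions with the compounds. Its lowest, median and highest levels were 43.5, 51.6 and 63.7 CPM in DMSO, where Rep 1 averaged 59.0 and Rep 2 45.5 CPM. They were 60.3, 63.7 and 71.9 CPM with SGI-1776 at 1500 nM and 62.3, 64.1 and 67.1 CPM at 3750 nM, with ranges that overlapped DMSO. They were 37.3, 40.1 and 41.8 CPM with SGI-1776-VHL-02 at 1500 nM and 30.7, 33.2 and 34.1 CPM at 3750 nM, below every DMSO library. The log2 fold change was 0.31 ± 0.07 (adjusted p = 0.00138) and 0.30 ± 0.07 (adjusted p = 0.000475) for SGI-1776, and -0.39 ± 0.07 (adjusted p = 0.00058) and -0.68 ± 0.07 (adjusted p = 4.34e-09) for SGI-1776-VHL-02.

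TIPARP, an ADP-ribosyltransferase that turns AHR signalling down, rose in all 4 treatments. Its lowest, median and highest levels were 111.6, 114.4 and 118.3 CPM in DMSO. With SGI-1776 they were 145.6, 150.1 and 154.3 CPM at 1500 nM and 177.3, 183.9 and 201.4 CPM at 3750 nM. With SGI-1776-VHL-02 they were 124.1, 138.4 and 154.0 CPM at 1500 nM and 131.4, 141.6 and 156.8 CPM at 3750 nM. All treated libraries lay above the DMSO range. The log2 fold change was 0.39 ± 0.05 (adjusted p = 1.29e-06) and 0.71 ± 0.05 (adjusted p = 5.62e-13) for SGI-1776, and 0.28 ± 0.05 (adjusted p = 0.000384) and 0.31 ± 0.05 (adjusted p = 5.3e-06) for SGI-1776-VHL-02.

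AHRR, the repressor, did not rise with the other target genes. It averaged 4.86 ± 0.467 CPM in DMSO, 4.15 ± 0.585 and 4.19 ± 0.395 CPM with SGI-1776, and 4.78 ± 0.442 and 5.12 ± 0.469 CPM with SGI-1776-VHL-02 (SD, n = 6), with overlapping ranges. The log2 fold change was -0.22 ± 0.09 at both doses of SGI-1776 (adjusted p = 0.109 and 0.0689), and -0.03 ± 0.09 and 0.07 ± 0.09 for SGI-1776-VHL-02. With Rep as a block both SGI-1776 values passed (-0.23, adjusted p = 0.0411, and -0.22, adjusted p = 0.0328), but neither did on libraries summed per Rep with the block (adjusted p = 0.132 and 0.0970). Leaving out Rep 1 (3) of DMSO or Rep 1 (1) of SGI-1776 at 3750 nM also took the value at 3750 nM past the threshold, at -0.25 each. AHRR shares 244 exonic bases on the same strand with PDCD6, and reads there cannot be assigned to either gene.

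The receptor gene passed the test in 1 of the 4 treatments. AHR averaged 56.4 ± 3.12 CPM in DMSO, 61.5 ± 4.04 and 64.3 ± 5.24 CPM with SGI-1776, and 59.7 ± 6.85 and 55.4 ± 4.37 CPM with SGI-1776-VHL-02, all overlapping. It rose at 3750 nM of SGI-1776 by a log2 fold change of 0.19 ± 0.07 (adjusted p = 0.0217), a call that was lost without Rep 2 (1) of that group (0.16, adjusted p = 0.0771). At 1500 nM the value was 0.13 ± 0.07 (adjusted p = 0.22), and 0.13 with an adjusted p of 0.0304 with Rep as a block, or 0.0679 on libraries summed per Rep with the block. With SGI-1776-VHL-02 the values were 0.08 and -0.02, with 95% intervals of -0.05 to 0.22 and -0.16 to 0.11.

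ARNT, the partner that AHR shares with the hypoxia-inducible factors, averaged 44.7 ± 1.51 CPM in DMSO and 51.9 ± 2.67 and 52.1 ± 1.89 CPM with SGI-1776, above every DMSO library. Its log2 fold change was 0.22 ± 0.04 at both doses (adjusted p = 0.000203 and 2.42e-05). With SGI-1776-VHL-02 it averaged 46.2 ± 1.94 and 49.5 ± 2.22 CPM, and rose at 3750 nM by 0.15 ± 0.04 (adjusted p = 0.00463), with overlapping ranges. In Rep 2 alone ARNT did not pass with SGI-1776 at 1500 nM (0.15, adjusted p = 0.0850) or SGI-1776-VHL-02 at 3750 nM (0.10, adjusted p = 0.238).

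The compounds were compared at matched doses in 14 tests, 7 genes at 2 doses, with p-values adjusted over all 17499 genes. At 1500 nM 2 of 7 genes differed, ALDH3A1 and ARNT, both lower with SGI-1776-VHL-02, against 25.2% of all genes called and 10.7% lower. With Rep as a block 5 differed, against 36.5%, and 3 when the libraries were also summed per Rep. At 3750 nM 6 of 7 differed, 5 lower and AHRR higher with SGI-1776-VHL-02, against 31.2% called, 13.5% lower and 17.6% higher. Over all genes 2527 were higher and 1881 lower at 1500 nM and 3080 and 2371 at 3750 nM, but 1614 and 2802, and 2089 and 3364, with library size only. Both compounds were set against the same DMSO libraries above, so the direct tests that follow carry the comparison.

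At 3750 nM, CYP1A1 was lower with SGI-1776-VHL-02 than with SGI-1776 by a log2 difference of -1.21 ± 0.12 (adjusted p = 1.4e-09), with no overlap between 5.06 to 10.3 and 15.8 to 19.5 CPM. ALDH3A1 differed by -0.98 ± 0.07 (adjusted p = 8.77e-13), CYP1B1 by -0.61 ± 0.08 (adjusted p = 5.11e-07) and TIPARP by -0.40 ± 0.05 (adjusted p = 3.91e-08), all without overlap. These are 4 of the 7 genes, where 16.6% of all genes had ranges apart. AHR differed by -0.21 ± 0.07 (adjusted p = 0.0111) and AHRR by 0.29 ± 0.09 (adjusted p = 0.0158), both with overlap. The AHRR call was lost without Rep 1 (3) or Rep 2 (1) of SGI-1776 at 3750 nM (0.23 and 0.26, adjusted p = 0.0714 and 0.0519), with no low-count filter (0.29, adjusted p = 0.0566) and without the 4 libraries under 0.5% mitochondrial counts (0.26, adjusted p = 0.0504). Rep 1 alone gave AHRR 0.19 (adjusted p = 0.314) and Rep 2 alone 0.37 (adjusted p = 0.0200), and libraries summed per Rep gave 0.29 (adjusted p = 0.261). ARNT differed by -0.07 ± 0.04 (adjusted p = 0.143, 95% interval -0.15 to 0.00), and by -0.13 (adjusted p = 0.0106) with library size only.

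At 1500 nM, ALDH3A1 differed by -0.70 ± 0.07 (adjusted p = 3.61e-09), with 37.3 to 41.8 CPM against 60.3 to 71.9 CPM, and ARNT by -0.17 ± 0.04 (adjusted p = 0.00115), which did not pass in Rep 2 alone (-0.15, adjusted p = 0.0693). Both had ranges apart, against 11.0% of all genes. CYP1A1 did not pass at this dose, with a log2 difference of -0.19 and a 95% interval of -0.42 to 0.04. Rep 1 alone gave CYP1A1 -0.31 (adjusted p = 0.0356) and Rep 2 alone -0.09 (adjusted p = 0.620). AHR had an interval of -0.18 to 0.09. CYP1B1 (-0.19, adjusted p = 0.0911) and TIPARP (-0.11, adjusted p = 0.0883) passed once Rep entered the fit as a block (adjusted p = 0.0131 and 0.0150), as did AHRR (0.20, adjusted p = 0.11, and 0.0498 with the block). On libraries summed per Rep with the block, CYP1B1 passed (adjusted p = 0.0361), but TIPARP and AHRR did not (adjusted p = 0.0744 and 0.133). In Rep 1 alone CYP1B1 had -0.28 (adjusted p = 0.000161) and TIPARP -0.20 (adjusted p = 0.00184). In Rep 2 alone neither passed, with -0.11 (adjusted p = 0.263) for CYP1B1 and -0.03 (adjusted p = 0.774) for TIPARP. CYP1B1 and TIPARP also passed without either Rep 2 (1) or Rep 2 (2) of SGI-1776-VHL-02, the libraries with the lowest mitochondrial shares, at -0.23 each and at -0.13 and -0.14.

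**Figure D3:**
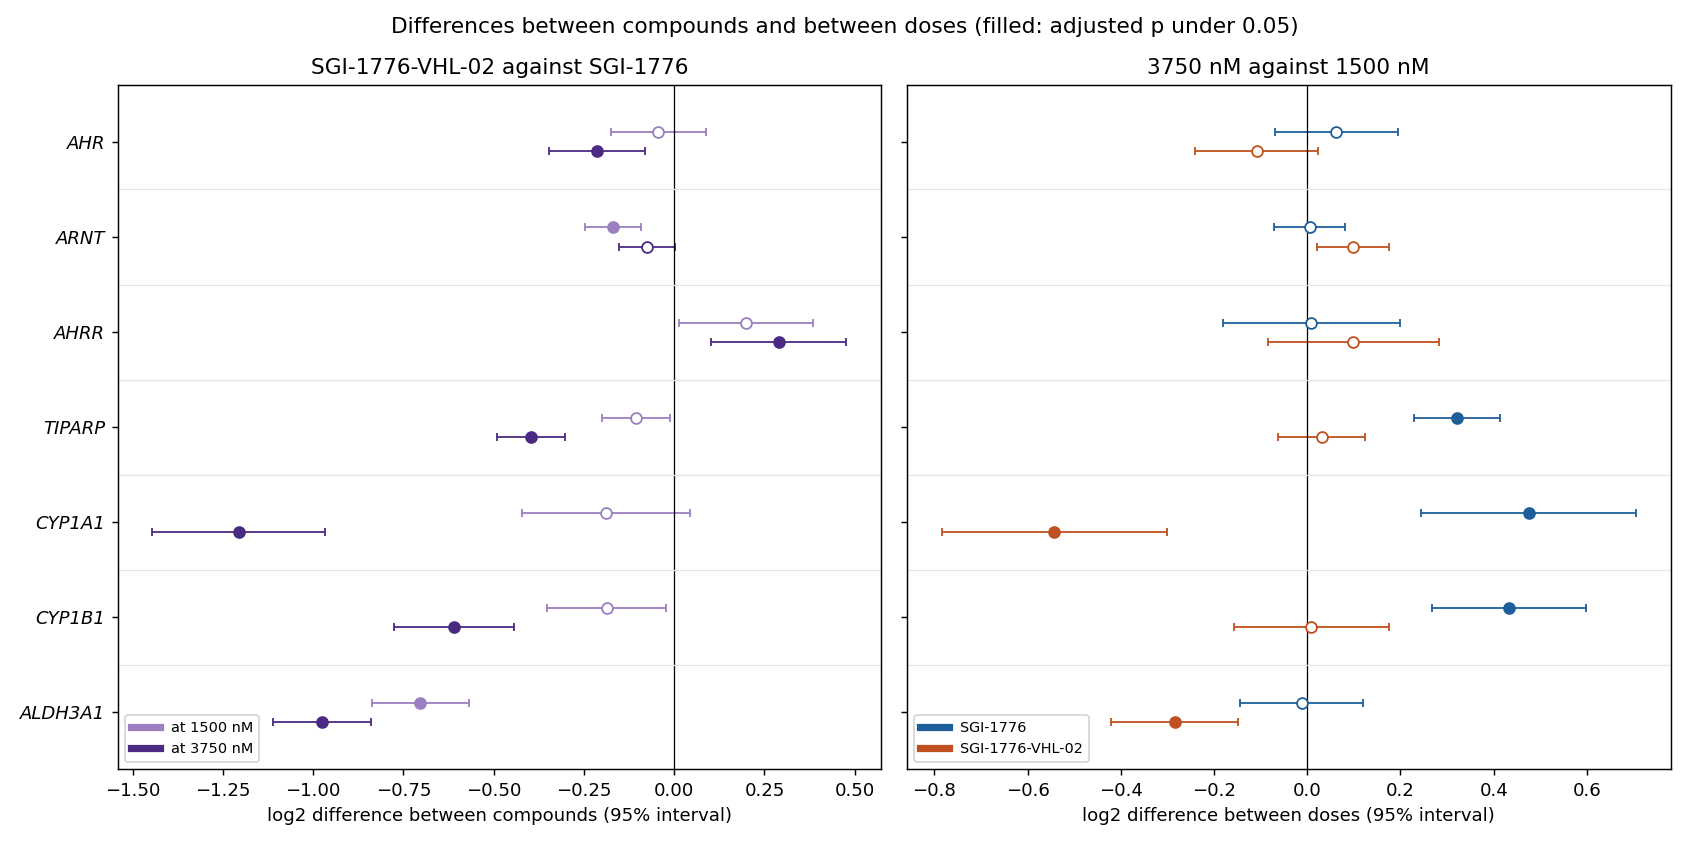
Left, log2 difference of SGI-1776-VHL-02 less SGI-1776 at each dose; right, log2 difference of 3750 nM less 1500 nM for each compound, both with 95% intervals, 6 libraries against 6, filled where the adjusted p was under 0.05. CYP1A1 rises with the dose of SGI-1776 by 0.47 and falls with that of SGI-1776-VHL-02 by -0.54.

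Raising the dose of SGI-1776 from 1500 to 3750 nM raised CYP1A1 by 0.47 ± 0.11 (adjusted p = 0.00585), CYP1B1 by 0.43 ± 0.08 (adjusted p = 0.000571) and TIPARP by 0.32 ± 0.05 (adjusted p = 2.24e-05). These are 3 of 7 genes, against 9.15% of all genes called (17.3% with Rep as a block) and 4.46% higher, and none of the 3 had overlapping ranges, against 4.82% of all genes. ALDH3A1 stood at -0.01, with a 95% interval of -0.14 to 0.12. Raising the dose of SGI-1776-VHL-02 lowered CYP1A1 (-0.54 ± 0.12, adjusted p = 0.00117) and ALDH3A1 (-0.28 ± 0.07, adjusted p = 0.00244), 2 of 7 genes against 19.0% called (29.2% with Rep as a block) and 9.74% lower. Of the 7 genes, ALDH3A1 had ranges apart, against 9.94% of all genes. CYP1B1 and TIPARP stood at 0.01 and 0.03. ARNT stood at 0.10 (adjusted p = 0.0655, 0.0361 in the fit blocked on Rep, but 0.121 once libraries were summed per Rep in that fit). It passed without Rep 1 (2) of the lower dose or Rep 2 (1) of the higher (0.11 and 0.12).

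Whether the gap between compounds changed with dose was tested as an interaction (the gap at 3750 nM minus the gap at 1500 nM), which was called for CYP1A1 (-1.02 ± 0.16, adjusted p = 0.000179), CYP1B1 (-0.42 ± 0.11, adjusted p = 0.0372) and TIPARP (-0.29 ± 0.06, adjusted p = 0.00874). That is 3 of 7 genes, all negative, against 2.67% of all genes called (6.21% with Rep as a block) and 1.02% negative. ALDH3A1 had -0.27 ± 0.09 (adjusted p = 0.14, 0.0240 in the fit blocked on Rep, but 0.175 once libraries were summed per Rep in that fit). Without the 4 libraries under 0.5% mitochondrial counts, CYP1B1 had -0.30 (adjusted p = 0.246) and TIPARP -0.20 (adjusted p = 0.111), so neither passed. CYP1B1 also missed the threshold with no low-count filter (-0.43, adjusted p = 0.0585), in Rep 2 alone (-0.29, adjusted p = 0.125) and on libraries summed per Rep (-0.41, adjusted p = 1.00). The CYP1B1 call was lost on leaving out any of 14 single libraries, with values of -0.44 to -0.37 and adjusted p from 0.0554 to 0.0853. These were all 3 of Rep 1 and Rep 2 (3) of SGI-1776 at 1500 nM, all 3 of Rep 2 of SGI-1776-VHL-02 at 1500 nM, Rep 1 (1), Rep 1 (3), Rep 2 (1) and Rep 2 (2) of SGI-1776 at 3750 nM, and all 3 of Rep 1 of SGI-1776-VHL-02 at 3750 nM.

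The Reps gave different sizes of effect for part of these genes. For CYP1A1 with SGI-1776-VHL-02 at 3750 nM, Rep 1 alone gave a log2 fold change of -0.49 ± 0.11 against DMSO (adjusted p = 0.00425), with means of 5.98 against 8.45 CPM. Rep 2 alone gave 0.22 ± 0.12 (adjusted p = 0.244), with 9.15 against 7.72 CPM. The difference between the Reps was 0.73 ± 0.17 (adjusted p = 0.0711), short of the threshold. At 1500 nM CYP1A1 had 0.23 (adjusted p = 0.239) in Rep 1 and 0.63 (adjusted p = 0.0112) in Rep 2. With SGI-1776 at 3750 nM the values were 1.11 in Rep 1 and 1.10 in Rep 2.

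CYP1B1 with SGI-1776-VHL-02 at 3750 nM had 0.06 ± 0.05 in Rep 1 alone (adjusted p = 0.471) and 0.41 ± 0.06 in Rep 2 alone (adjusted p = 0.000206), and the difference of 0.38 ± 0.08 passed (adjusted p = 0.0266). ALDH3A1 with the same treatment fell in both Reps, by 0.87 in Rep 1 and by 0.48 in Rep 2, and the difference of 0.41 ± 0.07 passed (adjusted p = 0.00429). These are 2 of 7 genes, against 0.257% of all genes. With SGI-1776 at 3750 nM ALDH3A1 had 0.12 in Rep 1 (adjusted p = 0.103) and 0.50 in Rep 2 (adjusted p = 1.18e-06). That difference of 0.40 ± 0.07 passed (adjusted p = 0.00907), 1 of 7 genes against 0.0629% of all genes. Both ALDH3A1 differences use the same DMSO libraries, which averaged 59.0 CPM in Rep 1 and 45.5 CPM in Rep 2. At 3750 nM the treated Reps lay close together, at 63.9 and 64.9 CPM with SGI-1776 and 32.4 and 33.1 CPM with SGI-1776-VHL-02. At 1500 nM Rep 1 and Rep 2 averaged 69.4 and 60.5 CPM with SGI-1776, and 41.0 and 38.8 CPM with SGI-1776-VHL-02. The difference between the compounds for ALDH3A1 at 3750 nM was -0.98 in each Rep.

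**Figure D4:**
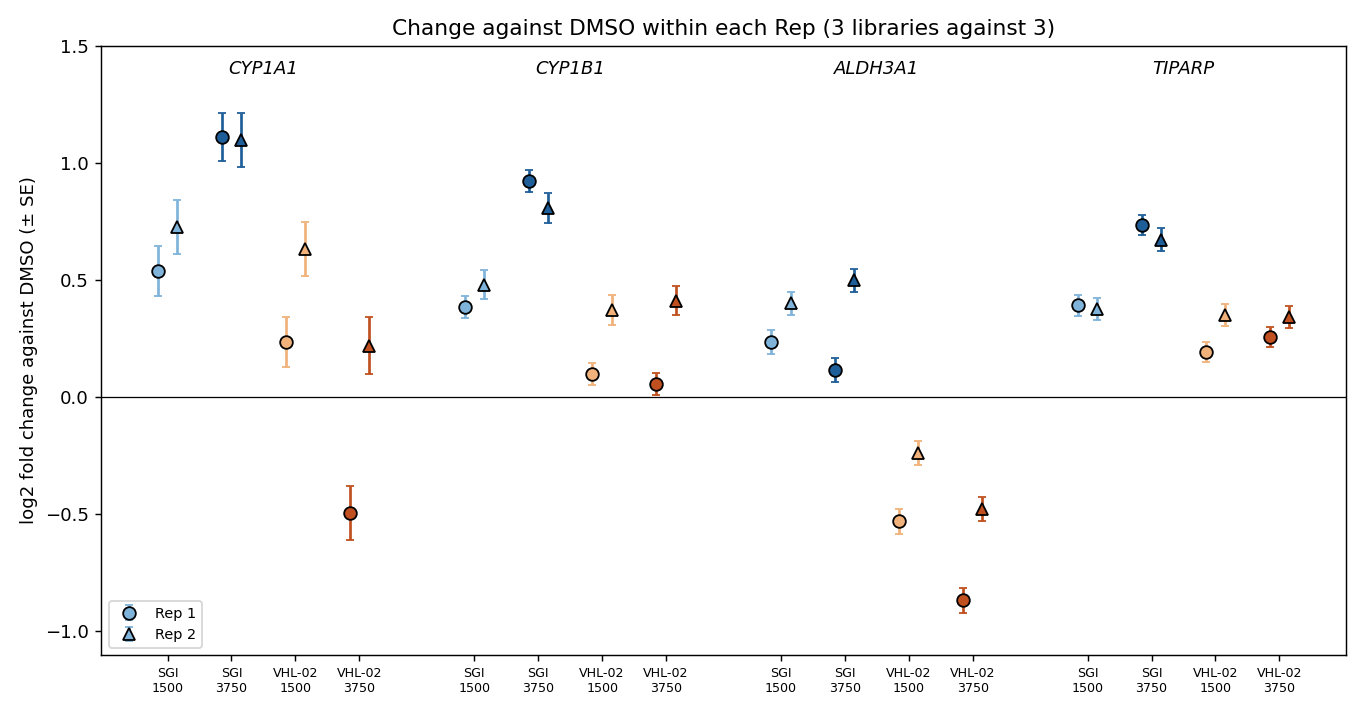
log2 fold change against DMSO (vertical axis, ± SE) within Rep 1 (circles) and Rep 2 (triangles), 3 libraries against 3, for 4 genes and 4 treatments. For CYP1A1 with SGI-1776-VHL-02 at 3750 nM the Reps lie on opposite sides of 0, at -0.49 and 0.22, whereas with SGI-1776 at 3750 nM they coincide.

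Other genes of the pathway were taken from lists, and each count is given at 3750 nM against DMSO. Beside these counts, 35.6% of all tested genes were called with SGI-1776 and 17.2% were higher. With SGI-1776-VHL-02 21.8% were called, 11.5% higher and 10.3% lower. No list was tested as a set, so the list counts are a description. Of the 5 genes of the cytoplasmic complex, all tested, 3 fell with SGI-1776 and 1 with SGI-1776-VHL-02. HSP90AA1, the inducible HSP90, fell by 0.43 on the log2 scale (adjusted p = 1.51e-08) with SGI-1776 and by 0.13 with SGI-1776-VHL-02. PTGES3, which encodes p23, and HSP90AB1 fell by 0.32 and 0.20 with SGI-1776. The list's median was -0.20 and -0.10 for the compounds.

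Of 20 other reported AHR targets, 15 were tested, and 2 rose and 4 fell with SGI-1776 while 3 rose and 4 fell with SGI-1776-VHL-02. TFF1, a secreted trefoil peptide, rose by 0.84 and 0.85. The amino acid transporter SLC7A5 rose by 1.03 with SGI-1776-VHL-02 and had -0.09 with SGI-1776, not called. PTGS2, the inducible cyclooxygenase, fell by 0.79 with SGI-1776. The drug efflux pump ABCG2 had -1.24 with SGI-1776-VHL-02 (adjusted p = 0.024) at 0.270 CPM in DMSO. NQO1, a quinone reductase named after its values were seen, fell by 0.21 with SGI-1776 and had -0.01 with SGI-1776-VHL-02. UGT1A1 was not called with either compound, and CYP1A2 was not tested for its low counts. The list's median was -0.21 with SGI-1776 and -0.09 with SGI-1776-VHL-02, beside 0.30 and 0.07 for the 7 genes.

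Of 18 NRF2 targets, the antioxidant genes that share several enzymes with the AHR response, 5 rose and 5 fell with SGI-1776 and 6 rose and 3 fell with SGI-1776-VHL-02. The cystine transporter SLC7A11 rose by 0.52 and 1.12. Haem oxygenase HMOX1 rose by 0.95 with SGI-1776-VHL-02 and had -0.07 with SGI-1776, not called. AKR1C1 rose by 0.85 with SGI-1776, and AKR1B10 fell by 0.60 with SGI-1776-VHL-02.

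Of 54 other cytochrome P450 genes 21 were tested, and 5 rose and none fell with SGI-1776, while 1 rose and 2 fell with SGI-1776-VHL-02. CYP39A1, an oxysterol hydroxylase, rose by 1.09 with SGI-1776 and had 0.21 with SGI-1776-VHL-02, not called. CYP51A1 of sterol synthesis rose by 0.35 and 0.30. CYP27C1 fell by 1.24 with SGI-1776-VHL-02. Of 17 other aldehyde dehydrogenase genes 13 were tested, and 4 rose and 2 fell with SGI-1776, while 2 rose and 6 fell with SGI-1776-VHL-02. ALDH3B1 rose by 0.45 and 0.61, ALDH1B1 fell by 0.46 and 0.49, and ALDH1A2 rose by 0.82 with SGI-1776. ALDH3A2, named after its values were seen, rose by 0.32 with SGI-1776 and fell by 0.12 with SGI-1776-VHL-02, the same pair of directions as ALDH3A1.

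Among 11 other PARP genes tested, the family of TIPARP, 2 rose and 3 fell with SGI-1776. None was called with SGI-1776-VHL-02 by edgeR. PARP1 and PARP12 fell by 0.28 and 0.27 with SGI-1776. Among 11 tested hypoxia targets, which depend on ARNT with a HIF subunit, 2 rose and 2 fell with SGI-1776 and 5 rose with SGI-1776-VHL-02. VEGFA rose by 0.77 with SGI-1776-VHL-02 and had -0.09 with SGI-1776, not called, and NDRG1 rose by 0.38 with each. Among 9 tested genes of other bHLH-PAS factors, the protein family of AHR and ARNT, 3 rose and 2 fell with SGI-1776 and 3 rose with SGI-1776-VHL-02. ARNTL2 of the circadian clock fell by 0.59 with SGI-1776 and rose by 0.32 with SGI-1776-VHL-02, and HIF1A was called with neither.

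Of 11 coactivators and regulators of AHR, all tested, 2 rose and 1 fell with SGI-1776 and 2 rose with SGI-1776-VHL-02. KLF6 fell by 0.27 with SGI-1776 and rose by 0.40 with SGI-1776-VHL-02. NCOA2 rose by 0.21 with SGI-1776, and EP300 was called with neither. Of 6 tested genes of tryptophan and kynurenine metabolism, which supplies AHR ligands, 1 rose and 1 fell with SGI-1776 and 1 fell with SGI-1776-VHL-02. That gene was IDO1, which had -0.90 with SGI-1776-VHL-02 (adjusted p = 0.00016). Of 4 tested xenobiotic receptor genes, PPARA rose with both compounds, by 0.49 and 0.50.

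The genes whose pattern over the 30 libraries was most like that of each enzyme gene were found by Pearson's r of log2 CPM centred within Rep, a description, since all genes share the libraries and their 5 groups. CYP1A1 was most like OAT (r = 0.893), PCDH18, ZNF860, MYLIP and PLCB4. CYP1B1 was most like CD55 (r = 0.940), TSC22D1, ETV1, UNC13B and KAT6B, and CD55 rose by 0.93 with SGI-1776 at 3750 nM. ALDH3A1 was most like SOX9 (r = 0.973), SPRY4, CADPS2, GATA2 and CTGF, with SOX9 at 0.21 and -0.56 at 3750 nM of SGI-1776 and of SGI-1776-VHL-02.

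By the coordinates of the count table, on GRCh38, CYP1A1 (ENSG00000140465) lies at chr15:74719542-74725610, CYP1B1 (ENSG00000138061) at chr2:38066973-38109902 and ALDH3A1 (ENSG00000108602) at chr17:19737984-19748943, all on the minus strand. ARNT (ENSG00000143437) lies on the minus strand at chr1:150809705-150876768. AHR (ENSG00000106546) lies at chr7:16916359-17346152, AHRR (ENSG00000063438) at chr5:304176-438291 and TIPARP (ENSG00000163659) at chr3:156673235-156706770, on the plus strand. All 7 are protein-coding, and counts are over exons. The labels do not say whether strand was used, so reads of opposite-strand neighbours cannot be told apart. CYP1B1-AS1 shares 678 exonic bases with CYP1B1 and stood at 0.822 CPM in DMSO. It fell with SGI-1776-VHL-02 against SGI-1776 at 3750 nM (-0.78, adjusted p = 0.00489). RMDN2 shares 96 and RMDN2-AS1 69 exonic bases with CYP1B1, AC073332.1 shares 270 with AHR, AC005722.3 shares 98 with ALDH3A1 and TIPARP-AS1 shares 37 with TIPARP. The largest overlap is that of AC019117.2, which shares 2373 of the 8081 exonic bases of AHR on the same strand. AC019117.2 had no count in any library, and reads in the shared bases cannot be assigned to either gene.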

How the data were processed

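RNA from PC3 cells was sequenced after poly-T selection, per the labels' protocols, in 30 libraries, 6 per group. The authors deposited raw gene counts, made with featureCounts 1.5.0-p3 on GRCh38/hg38 per the submitters' processing notes; aligner and annotation release: not given in the sources used here. Coordinates and exon lengths of the 7 genes were the same in GENCODE.

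Counts were fitted in R 4.3.3 with edgeR 4.0.16: filterByExpr (17499 genes), TMM scaling, a quasi-likelihood fit with 1 mean for each of the 5 groups over 30 libraries, 9 two-sided contrasts, and Benjamini-Hochberg adjustment over all genes at 0.05. SE is the size of each log2 fold change divided by the square root of its F. CPM uses TMM library sizes. The steps were tested on simulated data with independent libraries and no difference between Reps. That test therefore does not cover a Rep effect or libraries that are technical repeats. No molecular identifiers were counted, so amplified copies of a molecule cannot be told apart from separate molecules. SEs reflect only the spread between libraries.

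Rep numbers paired the groups: the Rep 2 less Rep 1 difference correlated between all 10 pairs of groups (Pearson 0.507 to 0.672, across genes). The main fit left Rep out, and its SEs and intervals are those given for treatments, compounds and doses unless a setting is named. With SGI-1776 at 3750 nM against DMSO, the SE of AHR was 0.065 in the main fit and 0.042 with the block. For ARNT these SEs were 0.038 and 0.036. The fit with Rep as a replicate block is given where it changed a call. Other alternatives were summed libraries, RLE, library size only, no filter, DESeq2 1.42.0, each Rep alone, and libraries left out.

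The 7 genes and all lists were chosen with earlier results of these data known. From each list at most 4 genes called against DMSO at 3750 nM, those with the largest change, and 1 not called could be named, with the overlapping genes and the 5 protein-coding genes most like each enzyme gene.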

Additional observations from a re-analysis of the deposited data

Results flagged for a closer look

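A change of the compound difference with dose was called for CYP1A1, with an interaction of -1.02 on the log2 scale (adjusted p = 0.000179). It was also called for CYP1B1, with -0.42 (adjusted p = 0.0372), and for TIPARP, with -0.29 (adjusted p = 0.00874). Each of the 3 was tested in the interaction term of the edgeR fit, and each compound difference was more negative at 3750 nM. The CYP1B1 call was lost on leaving out any of 14 single libraries. Without the 4 libraries under 0.5% mitochondrial counts neither CYP1B1 nor TIPARP passed.

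The effect against DMSO differed between Rep 2 and Rep 1 for ALDH3A1 with SGI-1776 at 3750 nM, by 0.40 (adjusted p = 0.00907), for ALDH3A1 with SGI-1776-VHL-02 at 3750 nM, by 0.41 (adjusted p = 0.00429), and for CYP1B1 with SGI-1776-VHL-02 at 3750 nM, by 0.38 (adjusted p = 0.0266). These were 3 of 28 effects tested, and the DMSO libraries enter all of them. No single library stood apart from its group by Dixon's test among the 35 groups of 6 values.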

How the results depend on the processing

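Over the 7 genes and 9 contrasts no called value changed sign under any alternative. Leaving out single libraries kept 1852 values on their side of the threshold, lost 30 calls and added 8. The other settings kept 552, lost 39 calls, added 22 and moved 17 uncalled values by more than 1 SE. The cause of the changes below was not tested. In some of these settings fewer samples or more genes entered the fit.

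With Rep as a block, the genes called rose to 3772 for SGI-1776 and 1649 for SGI-1776-VHL-02 at 1500 nM against DMSO, 3028 and 5112 for the dose steps of SGI-1776 and SGI-1776-VHL-02, and 1086 for the interaction, and 5 of the 7 genes differed between compounds at 1500 nM. It changed no call of the 7 genes other than those given above. Summing the 3 libraries of each group and Rep leaves 2 samples a group. It called 0 genes for SGI-1776 at 1500 nM (1661 at an unadjusted p under 0.05, and 2416 by DESeq2 on all libraries), 1742 at 3750 nM, 0 for SGI-1776-VHL-02 at 1500 nM (677, and 540 by DESeq2) and 410 at 3750 nM. It called 222 and 1401 between compounds at 1500 and 3750 nM, 0 and 136 for the dose steps (1343 unadjusted for SGI-1776, 1834 by DESeq2) and 0 for the interaction (623, and 596 by DESeq2). Of the 7 genes it called 0 for each compound at 1500 nM, 1 for SGI-1776-VHL-02 at 3750 nM, 1 between compounds at 1500 nM, and 0 for each dose step and the interaction. Summed with the block, 1 of the 9 calls that the block alone added for the 7 genes was kept, and SGI-1776-VHL-02 at 1500 nM had 844 genes.

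Without the low-count filter 1273 genes were called for SGI-1776 and 167 for SGI-1776-VHL-02 at 1500 nM, 907 for the SGI-1776 dose step and 229 for the interaction. Without the 4 libraries of low mitochondrial share 212 were called for SGI-1776-VHL-02 at 1500 nM, 4 of the 7 genes differed between compounds at 1500 nM and 1 in the interaction. With library size only, 4 of the 7 differed at 1500 nM. With single libraries or a Rep left out, calls ran from 1097 to 2332 for SGI-1776 at 1500 nM (1097 in Rep 1 alone), from 164 to 607 for SGI-1776-VHL-02 at 1500 nM, from 2712 to 4611 between compounds at 1500 nM (2712 in Rep 2 alone) and from 269 to 490 for the interaction (269 in Rep 2 alone), and from 1 to 5 of the 7 genes between compounds at 1500 nM. For SGI-1776-VHL-02 at 1500 nM, single libraries that moved the count by over 1.5 times were Rep 1 (1), (2), (3) and Rep 2 (1) of DMSO, with 164, 191, 184 and 579, and Rep 2 (2) and (3) of that treatment, with 179 and 213. CYP1A1 and AHRR had the lowest counts of the 7 genes, and the part of depth in their spread was not tested.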
